A study of Mus musculus with 9 samples.

Results

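The integrin and laminin subunit genes of the mouse were examined in dorsal root ganglia of the lumbar spine, which hold the cell bodies of sensory neurons. The members were the protein-coding genes with integrin alpha, integrin beta or laminin chain symbols in the GENCODE annotation, 37 of the 55536 genes counted, and comprised 18 integrin alpha, 8 integrin beta and 11 laminin genes. Messenger RNA had been sequenced from 5 libraries of adult C57Bl6 mice labelled icKO, with an inducible conditional knock-out of Prdm12, and from 4 control libraries of the same strain and age labelled wild type. Ganglia were taken 1 month after tamoxifen, which switches on the Cre enzyme of such an inducible allele. Prdm12 encodes a transcriptional regulator known for its role in pain-sensing neurons. The labels give neither the Cre driver nor the deleted exon. Any allele or treatment that icKO mice carried and wild type mice did not cannot be told apart from the loss of Prdm12.

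Laminins are secreted as trimers of an alpha, a beta and a gamma chain, and they build the basement membranes around Schwann cells, satellite glia and blood vessels. Integrins are cell surface receptors made of an alpha and a beta subunit, and the pairing decides whether the receptor holds on to laminin, collagen, proteins with the Arg-Gly-Asp (RGD) motif, or other cells. In peripheral nerve, laminins and their integrin receptors are known for their part in axon growth and myelination, while integrins of the beta2 type belong to white blood cells.

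Library totals ranged from 23878297 to 29481589 counts in icKO and from 19607740 to 27970469 counts in control, and values are given as CPM, the counts per 1000000 counts of the library after TMM scaling. A value after ± is the SD over the 5 icKO or the 4 control libraries. Prdm12 itself lay at 22.3 to 26.2 CPM in icKO, against 116 to 163 CPM in control, a log2 difference of -2.48. The summed level of 10 sensory neuron markers was 9883 to 11661 CPM in icKO and 10167 to 11692 CPM in control, and none of the 10 was at 0 in all libraries. Of 15 lists of cell type markers, 0 passed a two-sided exact permutation test of summed CPM at an adjusted p under 0.05. The smallest Benjamini-Hochberg adjusted p was 0.714, for neutrophils, where the unadjusted p was 0.0476. With 5 against 4 libraries this test can give no p below 0.00794. A single list with fully separated groups could therefore not pass adjustment over 15, and the outcome does not bound differences in composition. Y-linked counts were high in icKO 1 and 2 and in control 1 and 3, and control 3 had 103 CPM of them against 156 to 171 CPM in the other 3. Control 3 also stood apart in bone and immune genes, picked here after their values were seen. The bone genes Dmp1, Acp5 and Bglap had 9.04, 8.13 and 4.26 CPM there, against at most 1.03, 1.38 and 0.135 CPM in any other library. The macrophage gene Adgre1 had 42.0 CPM against at most 12.9 CPM. Of the other macrophage markers, Aif1, C1qb and C1qc were also highest in control 3, by less in CPM. Csf1r, Cx3cr1, C1qa, Cd68 and Mrc1 lay within the range of the other libraries. Cd163 was lowest in control 3, at 3.72 CPM against at least 4.18 CPM. Control 4 stood apart in central nervous system glia markers, with 85.4 CPM for the sum of 7 oligodendrocyte and astrocyte genes against at most 27.9 CPM in any other library, and with 29.7 CPM of the astrocyte gene Gfap against at most 1.92 CPM.

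Of the 36 members tested, 1 passed an adjusted p under 0.05 with edgeR, as did 0.852% of all genes tested. Members that did not pass may still have differed. Itgb6, which encodes the beta6 subunit that joins alpha v in a receptor known in epithelia for activating latent TGF-beta, fell 2.44-fold in icKO. Its values were 1.55, 1.70, 1.25, 1.36 and 1.66 CPM in icKO 1 to 5, against 3.63, 4.82, 3.35 and 2.89 CPM in control 1 to 4. Every icKO library lay below every control library, and control 2 was the highest of all. The mean was 1.5 ± 0.194 CPM (SD, n = 5) in icKO and 3.67 ± 0.824 CPM (SD, n = 4) in control, which rested on 33 to 46 reads per icKO library and 56 to 118 reads per control library. On the log2 scale the change was -1.29 with a 95% interval of -1.66 to -0.92, and it passed the quasi-likelihood test of edgeR with an adjusted p of 0.00299 (Benjamini-Hochberg over 17258 genes). The difference in mean log2 CPM was -1.07 where Y-linked counts were high and -1.35 where they were low. In whole ganglia, fewer cells that express a gene and less of its RNA per cell cannot be told apart.

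Itgb6 was a minor beta subunit in both groups. Per kilobase of exon it had 0.212 ± 0.0272 CPM in icKO and 0.516 ± 0.116 CPM in control, against 9.02 CPM in icKO and 9.66 CPM in control for Itgb8, another partner of alpha v that activates latent TGF-beta. Among Itgb3, Itgb5, Itgb6 and Itgb8, which pair with alpha v as Itgb1 also does, Itgb6 made up 1.26% ± 0.181 of the summed level per kilobase in icKO and 2.81% ± 0.727 in control. Of 6 epithelial markers, Cdh1, an adhesion gene that is not particular to epithelia, had 193 to 215 CPM in icKO and 193 to 218 CPM in control. The other 5, the keratins Krt5, Krt8, Krt14 and Krt18 and Epcam, were at or below 1.14 CPM in every library except for Krt5 at 4.48 CPM in control 4. The 10 nociceptor type markers summed to 4826 to 5631 CPM in icKO and 4925 to 6322 CPM in control. Both lists overlapped between the groups, and their part in the Itgb6 difference was not tested.

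Itgb6 (ENSMUSG00000026971) lies on the minus strand of chromosome 2 from 60598292 to 60722643 in the mm10 build, with 9 annotated transcripts. Prdm12 is on the same chromosome, 28.9 Mb away. Of the 11 other genes tested within 1 Mb of Itgb6, 0 were called by edgeR, 1 had an unadjusted p under 0.05, and their log2 fold changes ran from -0.18 to 0.12. RefSeq gives Itgb6 a pair of start sites. The windows around both run from 250 bases before to 50 bases after the start, and are shown because Itgb6 is the member that passed the test. The window of Itgb8 is shown because it is the alpha v partner of like function that did not pass. All are written 5′ to 3′ on the minus strand of GRCm38.p6, with capitals marking E-boxes, the CANNTG motif of basic helix-loop-helix factors, which reads alike on both strands.
Itgb6 upstream start, chr2:60722554-60722853: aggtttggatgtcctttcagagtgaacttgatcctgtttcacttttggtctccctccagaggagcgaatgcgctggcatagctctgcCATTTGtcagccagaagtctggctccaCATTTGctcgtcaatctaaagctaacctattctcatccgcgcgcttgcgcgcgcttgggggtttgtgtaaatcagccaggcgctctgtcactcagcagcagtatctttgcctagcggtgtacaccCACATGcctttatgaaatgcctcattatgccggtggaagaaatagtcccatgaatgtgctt
Itgb6 internal start, chr2:60673644-60673943: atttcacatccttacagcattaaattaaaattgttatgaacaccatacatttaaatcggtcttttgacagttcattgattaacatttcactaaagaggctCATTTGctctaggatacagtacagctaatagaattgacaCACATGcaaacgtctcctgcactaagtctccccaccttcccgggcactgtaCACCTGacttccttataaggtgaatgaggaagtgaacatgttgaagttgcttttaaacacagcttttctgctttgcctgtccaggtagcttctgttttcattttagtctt
Itgb8 start, chr12:119238227-119238526: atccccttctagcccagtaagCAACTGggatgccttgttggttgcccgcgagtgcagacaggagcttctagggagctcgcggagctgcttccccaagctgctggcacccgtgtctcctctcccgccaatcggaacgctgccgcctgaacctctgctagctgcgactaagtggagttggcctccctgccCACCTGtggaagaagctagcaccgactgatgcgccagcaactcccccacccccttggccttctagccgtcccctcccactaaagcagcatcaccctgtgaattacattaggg

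Each Itgb6 window held 3 E-boxes and the Itgb8 window held 2, and 72.3% of all 32851 RefSeq windows of this length held at least 1. None of the 3 windows held a TATA box (TATAAA, in 13.6% of all windows), an AP-1 motif (TGANTCA, in 7.81%) or a GC box (GGGCGG, in 35.7%), each searched on both strands. The upstream Itgb6 window had 12 CpG dinucleotides, the internal one 3 and the Itgb8 window 13, and the median of all windows was 7. RefSeq windows were found for 23 of the 37 members, and of their 26 windows, 22 held an E-box. Such matches describe the letters only.

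**Figure D1:**
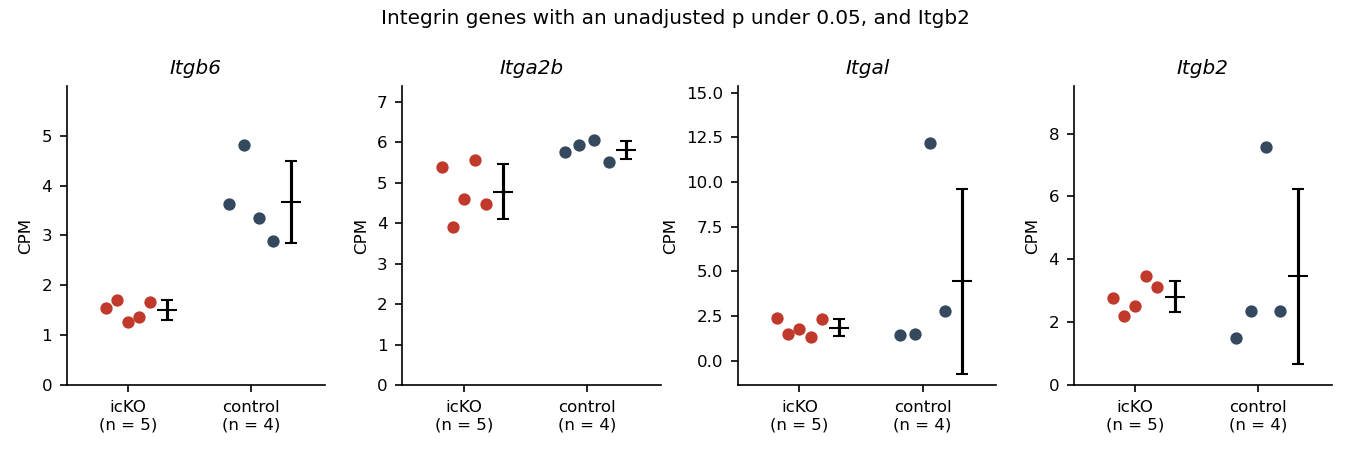
CPM of Itgb6, Itga2b, Itgal and Itgb2 in each library, with icKO libraries in red and control libraries in dark blue. Points are libraries, and the black marks give the mean and SD. Itgb6 is the 1 gene whose groups do not overlap, and the control spread of Itgal and Itgb2 comes from control 3, at 12.2 and 7.58 CPM.

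Of the 37 members, 36 passed the filter on low counts, all of them with at least 10 counts in every library, so that none passed through 1 group alone. The exception was Itgad, an alpha subunit of leukocyte integrins, with 1 to 5 counts per library in icKO and 2 to 4 in control. Among the 36, 0 were higher and 1 was lower in icKO at an adjusted p under 0.05 with edgeR. DESeq2 called the same single member, and 431 genes in all. Over all genes tested, edgeR called 0.852% in either direction, 0.377% as lower and 0.475% as higher. An unadjusted p under 0.05 was found for 3 members, all lower (Itgb6, Itga2b and Itgal), while 11.1% of all genes had one and 6.26% had one with a lower value. The groups did not overlap for 1 member, Itgb6, against 4.5% of all genes. The median log2 fold change of the 36 was -0.03, against -0.0008 over all genes, and 16 values lay above 0 and 20 below.

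**Figure D2:**
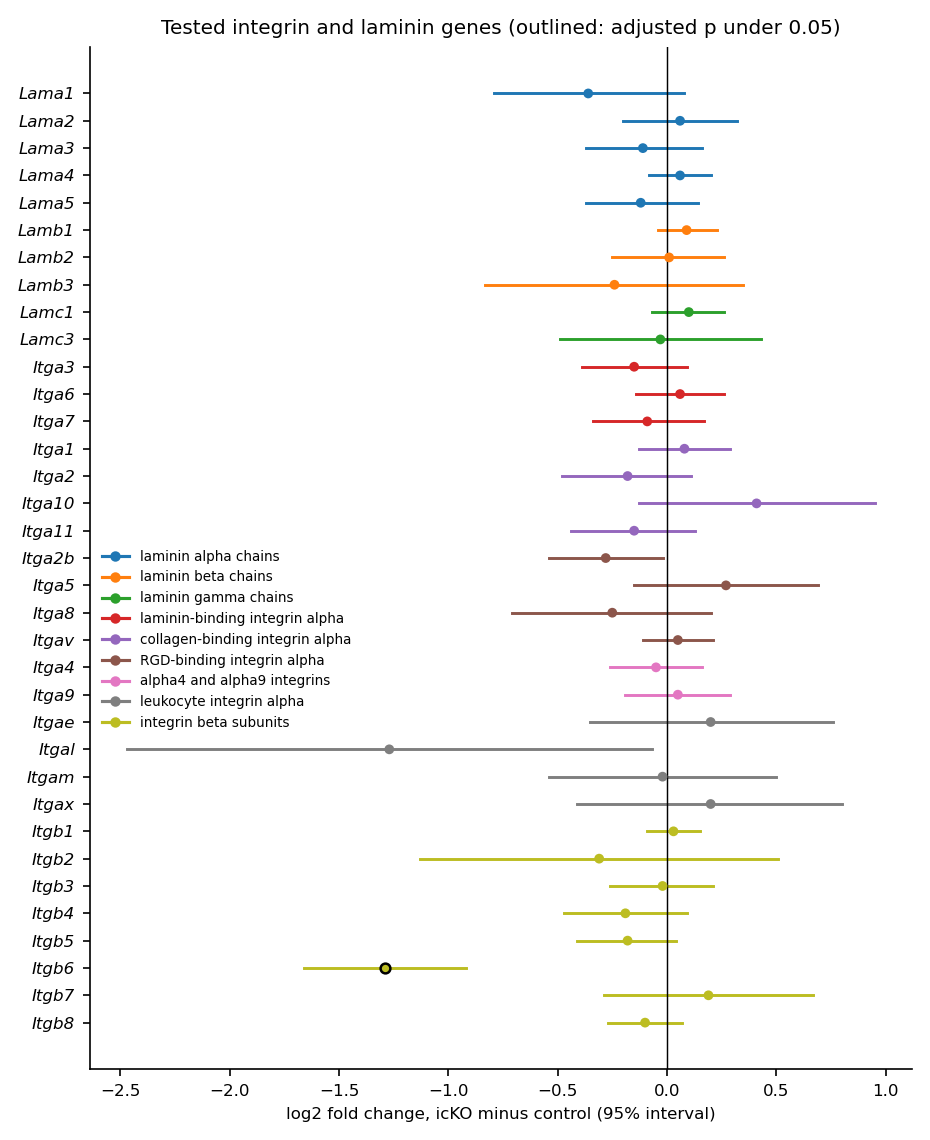
Log2 fold change (icKO minus control) of 35 tested members on the horizontal axis, with the 95% interval as a line, coloured by role. The outlined point is Itgb6 at -1.29, the 1 member past an adjusted p of 0.05. Itgal, at -1.27, has the widest interval, -2.47 to -0.07.

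The data also bounded how far most members could have differed. For 24 of the 36 members the 95% interval of the log2 fold change lay within a 1.5-fold change in either direction. The narrowest belonged to Itgb1, the common beta subunit of most integrins in nerve, from -0.09 to 0.15. Among the other wide intervals were those of Lamb3 (-0.83 to 0.35), Itgb2 (-1.13 to 0.51), Itga10 (-0.13 to 0.95) and Itgax (-0.41 to 0.80), all genes under 10 CPM. Their intervals did not exclude a 1.5-fold change in at least 1 direction.

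Laminin genes showed no call among 11 tested with edgeR's test, where 0 had an unadjusted p under 0.05 and DESeq2 called 0. Over all genes tested, edgeR called 0.852% and 11.1% had such a p, so 0 calls among 11 does not set the laminins apart. Their median log2 fold change was 0.01, with 6 values above 0 and 5 below. Among the alpha chains, Lama4, a chain of vessel and nerve basement membranes, had the highest level per kilobase. It had 43.3, 40.4, 47.2, 47.4 and 41.9 CPM in icKO 1 to 5 and 40.3, 39.9, 43.8 and 44.7 CPM in control 1 to 4, with the groups overlapping. Its log2 fold change was 0.06 (95% interval -0.08 to 0.20). Lama2, the chain of Schwann cell and muscle basement membranes whose loss causes muscular dystrophy, averaged 40.1 ± 4.02 CPM in icKO and 38.5 ± 7.88 CPM in control. Per kilobase of exon, Lama4 made up 45.0% ± 1.37 of the summed alpha chains in icKO and 43.3% ± 1.80 in control, Lama2 30.2% ± 1.71 in icKO and 28.9% ± 3.68 in control, and Lama5, a broadly expressed chain, 11.3% ± 1.64 in icKO and 12.3% ± 0.863 in control. The libraries of the groups overlapped in the share of each of the 5 alpha chains. With the longest transcript as the length, Lama4 made up 54.0% in icKO and 52.8% in control.

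Lama1, the main alpha chain of embryonic basement membranes, had the lowest fold change of the laminins, at -0.36 (SE 0.20, adjusted p = 0.569 by edgeR). It had 2.93 to 4.62 CPM in icKO and 3.55 to 6.52 CPM in control, where control 1 was highest. Its difference in mean log2 CPM was -0.67 among libraries with high Y-linked counts and 0.03 among those with low ones. Lama3, the alpha chain of the epithelial anchoring laminin, averaged 7.53 ± 0.780 CPM in icKO and 8.13 ± 1.26 CPM in control.

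The beta chains were dominated by Lamb1 and Lamb2, the partners of most alpha chains. Lamb1 had 96.3, 103, 94.4, 88.7 and 98.3 CPM in icKO 1 to 5, against 93.5, 81.9, 97.6 and 87.1 CPM in control 1 to 4, a log2 fold change of 0.09 (95% interval -0.04 to 0.23). Lamb2 averaged 48.5 ± 6.38 CPM in icKO and 48.3 ± 8.07 CPM in control. Both genes overlapped between the groups, and per kilobase Lamb1 held 54.6% ± 4.55 of the beta chains in icKO and 53.2% ± 4.97 in control. With the longest transcript as the length, Lamb1 held 65.5% in icKO and 64.1% in control. Lamb3, the epithelial beta chain, was at the low end, with at most 1.03 CPM in any library.

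Among the gamma chains, Lamc1, the partner in nearly all laminins of nerve and vessels, made up 81.8% ± 1.63 of the level per kilobase in icKO and 81.6% ± 4.02 in control. It had 62.3, 57.9, 72.9, 64.2 and 66.7 CPM in icKO 1 to 5 and 56.1, 55.3, 63.7 and 67.4 CPM in control 1 to 4. The groups overlapped. Lamc3, a chain known from retina and brain, lies 231 kb from Prdm12 on chromosome 2. It averaged 7.71 ± 0.827 CPM in icKO and 7.84 ± 2.98 CPM in control, with a 95% interval of the log2 difference from -0.49 to 0.43 and with control 1 lowest at 4.29 CPM and control 3 highest at 11.6 CPM.

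**Figure D3:**
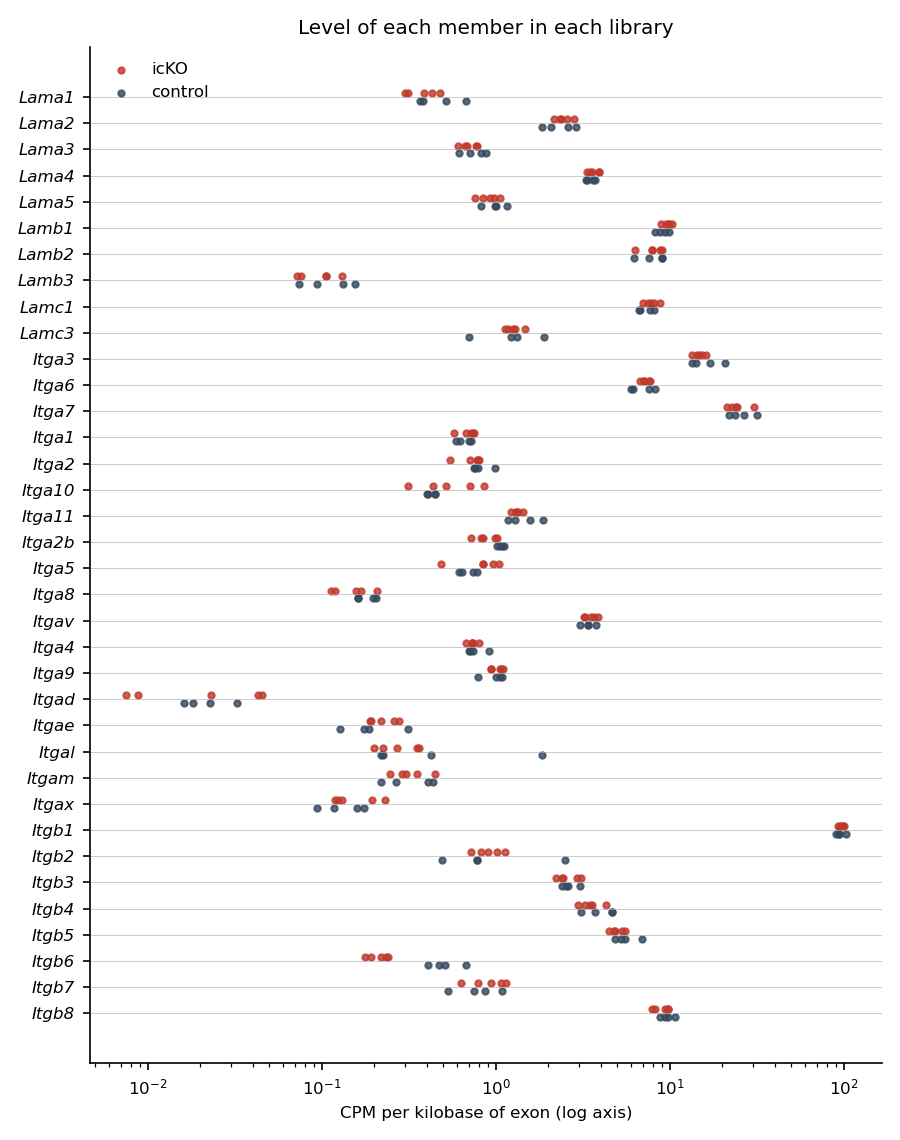
CPM per kilobase of exon (log axis) for 36 members in each library, icKO in red above control in dark blue, grouped by role. Itgb1 is the highest, with means of 97.1 in icKO and 95.2 in control, and Itgad the lowest, and the groups are set apart for Itgb6.

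Of all members Itgb1 had the highest level per kilobase, with 97.1 ± 3.08 CPM per kilobase in icKO and 95.2 ± 5.54 in control. Next in both groups came Itga7, at 24.5 ± 3.56 in icKO and 26.0 ± 4.31 in control, and Itga3, at 14.8 ± 1.06 in icKO and 16.3 ± 3.33 in control, both laminin-binding alpha subunits that pair with beta1. These 3 genes did not overlap with their neighbours in the order in either group. Behind them Itgb8, Lamb1, Lamb2, Lamc1 and Itga6 followed, from 9.68 CPM per kilobase for Lamb1 to 7.25 for Itga6 in icKO and from 9.66 for Itgb8 to 6.96 for Itga6 in control, with control libraries that overlapped from each to the next. In all, 31 of the 36 neighbouring pairs overlapped in control. The rank was the same in both groups for 17 members, and no member moved by more than 5 places. With the longest transcript as the length, Itga7 had 49.4 CPM per kilobase in icKO and 52.4 in control and Lamb1 16.6 in icKO and 15.6 in control, and over all libraries Itga6 took rank 5 in place of 8, while Itgb1, Itga7, Itga3 and Lamb1 kept ranks 1 to 4.

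Laminin-binding integrins gave 0 calls among 3 alpha genes with edgeR, where 0 had an unadjusted p under 0.05 and DESeq2 called 0. Over all genes tested, edgeR called 0.852% and 11.1% had such a p. Itga7, a receptor of muscle and nerve known to rise in regenerating neurons, had 193, 247, 196, 171 and 184 CPM in icKO 1 to 5, against 257, 192, 216 and 177 CPM in control 1 to 4. The groups overlapped, and the log2 fold change was -0.09 (95% interval -0.34 to 0.17). Itga3 averaged 84.2 ± 6.08 CPM in icKO and 93.3 ± 19.0 CPM in control, where control 1 was highest at 118 CPM. Itga6, which pairs with beta1 or beta4, averaged 65.4 ± 3.75 CPM in icKO and 62.8 ± 9.87 CPM in control. Its partner Itgb4, found on myelinating Schwann cells and in epithelial anchors, averaged 24.7 ± 3.41 CPM in icKO and 28.3 ± 5.45 CPM in control, with an adjusted p of 0.661 from edgeR. The 9 myelinating Schwann cell markers summed to 3109 to 3718 CPM in icKO and 3025 to 3660 CPM in control.

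The common subunit Itgb1 varied little, with a coefficient of variation of 3.17% in icKO, the lowest of the tested members there, and 5.82% in control. It had 396, 412, 388, 405 and 380 CPM in icKO 1 to 5 and 420, 382, 385 and 366 CPM in control 1 to 4, and the groups overlapped. Of the other beta subunits, Itgb8 averaged 99.8 ± 9.56 CPM in icKO and 107 ± 8.73 CPM in control. Itgb5, a vitronectin receptor subunit, averaged 17.7 ± 1.49 CPM in icKO and 20.1 ± 3.23 CPM in control, and Itgb3, shared by platelets and vessels, 15.4 ± 2.18 CPM in icKO and 15.7 ± 1.63 CPM in control. Itgb7, a lymphocyte subunit, had 1.74 to 3.17 CPM in icKO and 1.47 to 2.99 CPM in control. None of Itgb8, Itgb5 and Itgb3 passed, with log2 fold changes of -0.10, -0.18 and -0.02. Itgav, the alpha v subunit itself, had 39.5, 35.0, 41.4, 38.0 and 34.4 CPM in icKO 1 to 5, against 36.2, 36.5, 40.3 and 32.6 CPM in control 1 to 4. Its groups overlapped, with a log2 fold change of 0.05 (95% interval -0.11 to 0.21). Itgb6 was thus the 1 alpha v partner with a call, but whether its change differed from theirs was not tested.

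Itga2b, the platelet alpha subunit that binds fibrinogen with beta3, had an unadjusted p of 0.035 and did not pass adjustment. It had 5.38, 3.91, 4.60, 5.55 and 4.46 CPM in icKO 1 to 5, against 5.75, 5.92, 6.05 and 5.51 CPM in control 1 to 4. All but icKO 4 lay below every control library. On the log2 scale the difference was -0.28 (SE 0.12, adjusted p = 0.393 with edgeR). The 5 markers of platelets and megakaryocytes summed to 5.50 to 10.9 CPM in icKO and 4.14 to 10.5 CPM in control, and their part in this value was not tested.

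The other RGD-binding subunits were Itga5, the fibronectin receptor, and Itga8, a receptor of smooth muscle and kidney. Itga5 averaged 4.13 ± 1.05 CPM in icKO and 3.43 ± 0.397 CPM in control, with an adjusted p of 0.688 from edgeR. Itga8 stayed at or below 1.54 CPM in every library. Collagen-binding alpha subunits also gave 0 calls among 4 genes with edgeR, where 0 had an unadjusted p under 0.05 and DESeq2 called 0. Over all genes tested, edgeR called 0.852% and 11.1% had such a p. Itga11, a collagen receptor of fibroblasts and the highest of these per kilobase, had 6.90, 6.74, 6.72, 7.36 and 6.28 CPM in icKO 1 to 5, against 6.60, 6.04, 8.09 and 9.64 CPM in control 1 to 4. Control 3 and 4 were above all icKO libraries and control 1 and 2 were not. Itga10, a collagen receptor of cartilage, had 2.25, 1.63, 4.46, 3.70 and 2.68 CPM in icKO 1 to 5 but 2.09 to 2.33 CPM in control. Itga10 shares 33.5% of its exon bases with Gm42957 on the same strand, which had 0 to 2 counts per library, and reads in the shared stretch may be missing from its count. Of the other collagen receptors, Itga1 averaged 12.9 ± 1.3 CPM in icKO and 12.2 ± 1.13 CPM in control, and Itga2 5.16 ± 0.759 CPM in icKO and 5.87 ± 0.811 CPM in control.

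The libraries highest for Itga10, icKO 3 and 4, also had the highest sums of 10 fibroblast and meningeal markers. The sums were 1836 and 1932 CPM there, against 767 to 1345 CPM in the other icKO libraries and 634 to 1330 CPM in control. The sum of 1345 CPM, in icKO 1, was above every control, but Itga10 lay within the control range there, at 2.25 CPM. Over the range of control sums, Itga10 stayed at 2.09 to 2.33 CPM. In icKO 3 the meningeal gene Ptgds made up 725 CPM, against at most 137 CPM in any other library. Col1a1, at 94.0 CPM, Dcn, at 698 CPM, and Lum, at 69.0 CPM, lay below their values in icKO 1 and 5. Pdgfra, at 23.1 CPM, Slc47a1, at 14.9 CPM, Igf2 and Slc22a6 lay above theirs. Col1a2, at 198 CPM, and Foxc1, at 6.27 CPM, lay between those of icKO 1 and 5. In icKO 4, Col1a1 at 144 CPM, Dcn at 1173 CPM, Slc47a1 at 16.3 CPM and Foxc1 at 8.96 CPM were the highest of the 9 libraries. Ptgds, at 137 CPM, and Slc22a6 were higher only in icKO 3, and Igf2 was higher in icKO 3 and control 2. In icKO 2, the lowest for Itga10 and Itga5, the 10 markers summed to 767 CPM. Itga5 was higher in icKO 1, at 4.78 CPM, than in icKO 3, at 4.18 CPM. Fn1, the gene of the integrin ligand fibronectin, had 82.8 and 60.1 CPM in icKO 3 and 4, against 23.2 to 26.9 CPM in the other icKO libraries and 18.3 to 26.4 CPM in control. The part of these cells in the values was not tested.

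Itga9, a receptor for tenascin and VCAM-1, and Itga4, the lymphocyte and neural crest subunit that binds fibronectin and VCAM-1, did not pass. Itga9 had 7.23, 7.24, 8.15, 8.27 and 8.41 CPM in icKO 1 to 5 and 7.73, 6.08, 8.38 and 8.09 CPM in control 1 to 4, with the groups overlapping. Itga4 had a log2 fold change of -0.05 (95% interval -0.26 to 0.16). Cerkl, on the other strand, covers 8.04% of the exon bases of Itga4, and since the strand setting of the counting is not given, reads there cannot be told apart.

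Among the white blood cell integrins, the Itgal values were set apart by 1 library. Itgal encodes the alpha subunit that pairs with the beta2 subunit, the product of Itgb2, in the adhesion receptor LFA-1 of lymphocytes and other leukocytes. It had 2.39, 1.47, 1.78, 1.32 and 2.33 CPM in icKO 1 to 5, against 1.43, 1.47, 12.2 and 2.78 CPM in control 1 to 4. Control 3 was far above every other library, while control 1 and 2 lay within the icKO range and control 4 just above it. The log2 fold change was -1.27 (SE 0.55, unadjusted p = 0.0391, adjusted p = 0.41 by edgeR) and became 0.01 without control 3 (adjusted p = 0.998).

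Itgb2 showed the same library as the high one. It had 2.76, 2.21, 2.51, 3.45 and 3.12 CPM in icKO 1 to 5, against 1.5, 2.37, 7.58 and 2.37 CPM in control 1 to 4, and its log2 fold change of -0.31 turned to 0.45 without control 3 (adjusted p = 0.542 by edgeR). The other beta2 partners did not share that height. Itgam, the alpha subunit of macrophages and neutrophils, had 2.19 CPM in control 3 and 1.10 to 2.06 CPM in the other controls, and Itgax, the dendritic cell subunit, stayed at or below 1.11 CPM in every library. The 10 macrophage markers summed to 131 to 210 CPM in icKO and 102 to 219 CPM in control. Control 3 was the highest, and Adgre1 alone gave 42.0 CPM of its sum. Itgae, the subunit of lymphocytes in epithelia, had 0.871 to 1.27 CPM in icKO and 0.587 to 1.44 CPM in control. The 8 lymphocyte markers summed to 3.14 to 5.30 CPM in icKO and 2.31 to 5.15 CPM in control, with 3.68 CPM in control 3, and the 8 neutrophil markers to 26.6 to 59.0 CPM in icKO and 19.0 to 29.5 CPM in control, with 27.4 CPM in control 3. Their part in the Itgal and Itgb2 values was not tested. Itgam shares 68.7% of its exon bases with the overlapping gene Gm49368, which had 0 counts in all libraries, so reads in the shared stretch may be missing from its count.

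**Figure D4:**
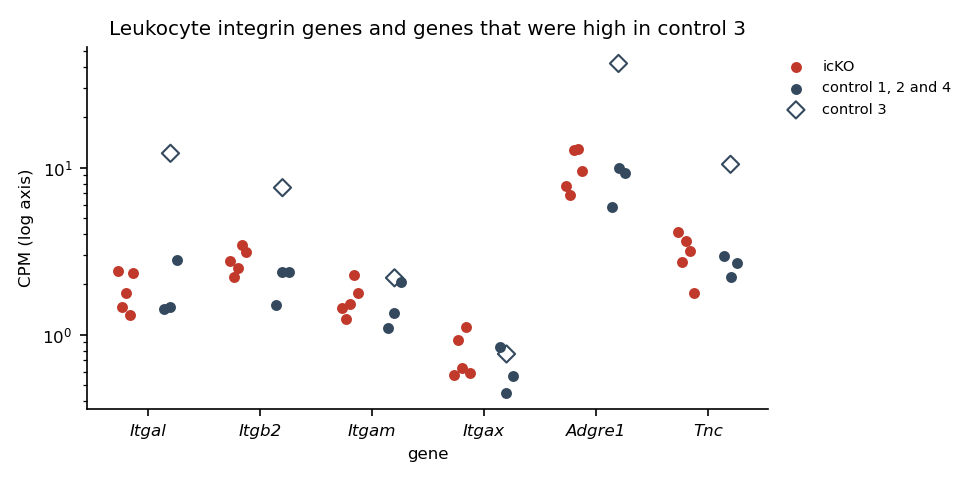
CPM (log axis) of 4 leukocyte integrin genes, the macrophage gene Adgre1 and the matrix gene Tnc in each library. The open diamond is control 3, which had 12.2 CPM of Itgal, 7.58 CPM of Itgb2, 42.0 CPM of Adgre1 and 10.5 CPM of Tnc, and lay among the other libraries for Itgam and Itgax.

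Members at low levels varied more among libraries. Coefficients of variation for the 17 members at 10 CPM or more ran from 3.17% to 14.5% in icKO and from 5.76% to 20.5% in control. For the 19 tested members under 10 CPM they ran from 5.72% to 38.5% in icKO and from 3.99% to 116% in control, the last being Itgal. Control 3 was the highest control for 18 of the 36 members and control 2 for 1, which was Itgb6. Relative to the mean of the 9 libraries, the median member was highest in control 3, by 0.12 on the log2 scale, and lowest in control 2, at -0.11. In the icKO libraries this median ran from -0.07 to 0.05.

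**Figure D5:**
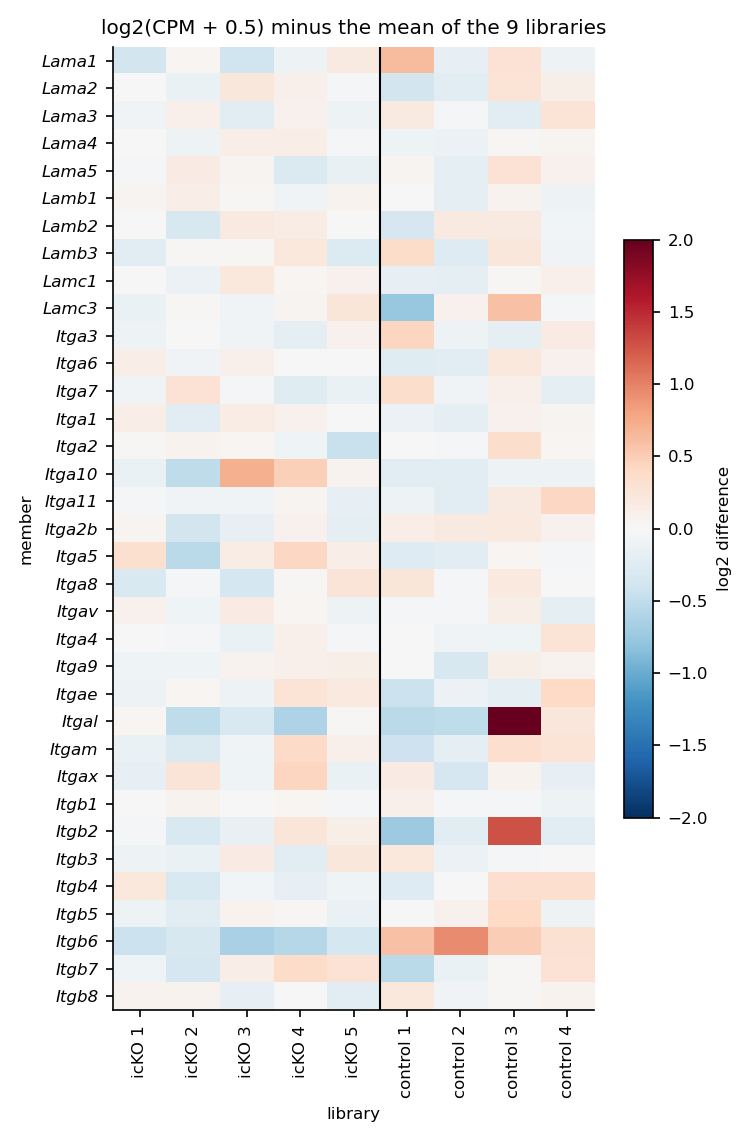
Log2(CPM + 0.5) of 35 tested members in each library, minus the mean of the 9 libraries, with members grouped by role, icKO libraries left of the line and colours capped at 2 in either direction. Itgb6 is blue in all 5 icKO libraries and red in all 4 controls, while Itgal and Itgb2 are red in control 3.

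Other genes of the pathway, taken from 5 lists, gave 0 calls among 73 tested with edgeR's test. An unadjusted p under 0.05 was found for 5 with higher and 6 with lower values. Over all genes tested, edgeR called 0.852% and 11.1% had such a p, so 0 calls among 73 lay near that share. Among 22 cytoplasmic partners of integrins, which link them to actin and to kinases, the smallest p belonged to the focal adhesion kinase relative Ptk2b. It had 19.6, 22.8, 26.2, 16.7 and 17.6 CPM in icKO 1 to 5, against 31.1, 25.1, 36.3 and 32.3 CPM in control 1 to 4, with overlap only of icKO 3 and control 2. On the log2 scale it differed by -0.60 (SE 0.13), and the adjusted p from edgeR was 0.0645. The next were the adhesion site proteins Zyx, at -0.27 (adjusted p = 0.199), and Tns3, at -0.17 (adjusted p = 0.341). Ilk, the integrin-linked kinase gene, had 2 to 9 counts per library and was not tested.

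Among 18 basement membrane partners and laminin receptors, Sgcd, a sarcoglycan of the dystrophin complex that anchors to laminin, had 18.1, 16.6, 18.4, 17.3 and 18.3 CPM in icKO 1 to 5, against 13.9, 10.5, 13.4 and 15.4 CPM in control 1 to 4. The groups did not overlap, but the difference of 0.42 on the log2 scale did not pass (edgeR, adjusted p = 0.0745). Col4a3, Vcam1, Tgfbr1 and Ltbp3 of the pathway lists also had groups without overlap, as did 4.5% of all genes tested. The collagen IV gene Col4a3 was at -0.45 (adjusted p = 0.165). Of 17 other integrin ligands, Vcam1, the partner of alpha4 and alpha9 receptors, had the smallest p with a log2 fold change of 0.44 (adjusted p = 0.136), followed by Postn at -0.24 and Fn1 at 0.90 (adjusted p = 0.353).

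Genes of latent TGF-beta activation, in which alpha v receptors with beta6 or beta8 take part, gave 0 calls among 11 with edgeR's test. An unadjusted p under 0.05 was found for 1 with a higher and 1 with a lower value. Over all genes tested, edgeR called 0.852% and 11.1% had such a p. The receptor gene Tgfbr1 averaged 32.2 ± 1.93 CPM in icKO and 26.9 ± 2.34 CPM in control, a log2 difference of 0.26 (adjusted p = 0.134 with edgeR). Ltbp3, which tethers latent TGF-beta to the matrix, averaged 89.6 ± 2.49 CPM in icKO and 104 ± 9.23 CPM in control, a log2 difference of -0.22 (adjusted p = 0.134). The median of the list was 0.01. DESeq2 called 5 pathway genes, Ptk2b and Ltbp3 as lower and Sgcd, Vcam1 and Tgfbr1 as higher. Over all 17258 genes tested, DESeq2 called 431 and edgeR 147. Of 5 tested genes with integrin names outside the families, such as Itgbl1 and Itgb1bp1, 0 had an unadjusted p under 0.05 and DESeq2 called 0.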

How the data were processed

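The files hold raw counts for each gene, as the authors deposited them, in a table for every library. The submitters' processing notes name bcl2fastq (2.20.0.422), STAR (2.5.2a), featureCounts (1.5.0-p1) and the mm10 build, with annotation release and strand setting not given in the sources used here. Groups came from the titles. Whether each library is its own animal is not labelled, and p-values then reflect spread among libraries that may be technical. Replicate libraries differed by more than sampling noise (chi-square per degree of freedom 6.07 to 23.5).

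Symbols, positions and exon lengths came from GENCODE M21, which held all 55536 identifiers. Genes kept by filterByExpr (minimum count 10, minimum total 15) numbered 17258. They were compared with edgeR 4.0.16 in R 4.3.3, using TMM factors, trended dispersion and a quasi-likelihood test, with Benjamini-Hochberg adjustment and a threshold of 0.05. Log2 fold changes are icKO minus control. The SE is the size of the fold change over the square root of F, and intervals use the degrees of freedom of the test. CPM per kilobase used the union of exons. Genes given with every library were members past the adjusted or unadjusted threshold and the highest member of each role per kilobase. From each pathway list up to 3 genes with the smallest p were named, except from the last, where none had an unadjusted p under 0.05. Itgb2, Itga10, Fn1 and the genes high in control 3 were added after their values were seen. 1 member is counted in the totals but not reported here by name or in the figures. The members and lists were chosen with earlier results of these data known. Alternatives were RLE factors, library size alone, 2 other filters, robust dispersion, DESeq2 1.42.0, a replicate block, the Y-linked class as a covariate, each library left out, and the longest transcript as length. The floor of 3 counts covers counting error only, whereas the intervals of fold changes also hold the spread between libraries.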

Additional observations from a re-analysis of the deposited data

Results flagged for a closer look

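In 3 of 72 groups of libraries examined, 1 library lay farther from the rest of its group than Dixon's 95% criterion allows, and chance flags about 1 in 20 groups. All 3 were the highest control library, control 3. Itgal had 12.2 CPM there, against 1.43 to 2.78 CPM in the other controls. Itgb2 had 7.58 CPM against 1.5 to 2.37 CPM. Itga2, a collagen receptor subunit, had 7.07 CPM against 5.35 to 5.62 CPM.

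Itga9 moved in opposite directions in the classes of high and low Y-linked counts with no overlap in either class. The high class held icKO 1 and 2 and control 1 and 3, and the low class the other libraries. In the low class the nearest values were 8.15 CPM in icKO 3 and 8.09 CPM in control 4. With so few libraries such a pattern can arise by chance, and its share over all genes is not given here. Its difference in mean log2 CPM was -0.15 in the high class and 0.24 in the low class, and the fitted difference, low class minus high class, was 0.38 on the log2 scale. A test of this interaction across all genes with edgeR gave adjusted p = 1 for Itga9 and called 0 genes in all, with 1 member (Itga10) at an unadjusted p under 0.05.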

How the results depend on the processing

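Itgb6 kept its direction and its call under all 17 alternatives, with log2 fold changes from -1.38 to -1.13 and a highest adjusted p of 0.0195, the value with the replicate number as a block. Its log2 fold change with that replicate block was -1.31. No other member was called under any of the 17, and the block changed no other call among the members. Deviations of same-numbered libraries correlated at 0.103, -0.175, -0.0441 and 0.17. These values gave no sign of pairing by number but cannot exclude a shared origin, which the labels do not give. Of 592 values of members under alternatives, 24 changed sign, all of genes that passed in no fit. One came from the Y-linked covariate, Lamb2 at -0.02, and the others from leaving out 1 library. Over the libraries left out, log2 fold changes ran from -0.24 to 0.24 for Lamc3, -0.01 to 0.16 for Itga6, -0.09 to 0.04 for Itga4, -1.58 to 0.01 for Itgal, -0.18 to 0.16 for Itgam, -0.04 to 0.19 for Lama2, -0.57 to 0.45 for Itgb2, -0.18 to 0.02 for Itga7, -0.10 to 0.08 for Lamb2, -0.04 to 0.12 for Itga9 and -0.08 to 0.05 for Itgb3. Over all genes, 147 calls became 393 with no count filter, 431 with DESeq2 and 48 with the replicate block, and 78 to 175 over libraries left out, with falls of over 1.5-fold without icKO 1, 3, 4 or 5 or control 3. Pathway calls became 4 with no count filter, 5 with DESeq2 and 0 to 1 over libraries left out, 1 without icKO 3, control 2 or control 4. The causes were not tested. The share of higher genes among all calls, 55.8%, was 43.8% with no count filter and 45.7% with DESeq2. Among the members named here, the longest transcript as the length moved the levels of Itga6, Itga7, Itga1, Itga2b, Itgav, Lamb1, Lama2 and Lama4 by over 1.5-fold. Lama4 then had 7.28 CPM per kilobase in icKO and 6.97 in control, and with all exons 3.65 in icKO and 3.49 in control. Low counts limit Itgb6, Lamb3, Itgax and Itgae, and 3 counts equal 0.101 to 0.155 CPM.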
